A study of Rattus norvegicus with 40 samples.

Results

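The miRNAs rno-miR-122, rno-miR-192, rno-miR-194 and rno-miR-215 are best known from liver and gut, and their levels were followed in the plasma of rats after a brain injury. They were chosen by name: each miRNA of the count table with 1 of these 4 stems, from either arm of its hairpin. That gave 6 of 752 miRNAs, and 5 of these were among the 581 with at least 1 read in any library. The sixth, rno-miR-122-5p, had 0 reads in all 40 libraries, and rno-miR-215, which has no entry in the table, was not analysed here.

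Small RNA was sequenced from tail-vein plasma of 20 adult male Sprague-Dawley rats on D2 and on D9 after surgery, 1 library per rat and day. The surgery was a severe lateral fluid-percussion injury (TBI) in 16 rats and a sham operation, with craniotomy and without impact, in 4 rats. By continuous video-EEG in the sixth month, 7 of the injured rats had epilepsy (TBI+) and 9 had none (TBI−), so these groups were formed long after the blood was drawn. Blood was drawn under isoflurane, plasma aliquots of the same rat and day were pooled before RNA extraction, and the spread given for a group is that between separate rats.

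In tissue, miR-122 is the dominant miRNA of hepatocytes, where it acts on lipid metabolism and is released into blood when these cells are damaged. The miR-192 and miR-194 genes lie in clusters that are transcribed together in hepatocytes and in gut and kidney epithelium, under control of HNF factors, and miR-215 is a close relative of miR-192. Plasma is a bulk sample: fewer cells of a type, less RNA per cell and less release cannot be told apart.

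The mature sequences of the members are given from RefSeq, build GRCr8, because which arms can be told apart by sequence bears on the counts. Capitals mark the seed, bases 2 to 8. The first pair shares a seed, and the other sequences have a seed of their own among those shown.
rno-miR-192-5p: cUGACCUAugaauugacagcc
rno-miR-215: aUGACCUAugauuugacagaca
rno-miR-194-5p: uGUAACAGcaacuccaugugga
rno-miR-194-3p: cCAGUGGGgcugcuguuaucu
rno-miR-192-3p: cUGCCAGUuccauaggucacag
rno-miR-122-5p: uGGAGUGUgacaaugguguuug
rno-miR-122-3p: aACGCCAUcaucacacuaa
Compared base by base from the 5′ end, rno-miR-192-5p and rno-miR-215 are identical at 18 of 21 positions. Where reads of rno-miR-215, if any, were counted is not given in the sources used here and was not tested. In RefSeq, Mir192 and Mir194-2 are neighbours between Atg2a and Ehd1, while Mir194-1 and Mir215 both lie within Iars2. The mature rno-miR-194-5p of both of its genes is the same sequence, so its reads cannot be assigned to a cluster.

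Levels are given as CPM, the reads of a miRNA per 1000000 reads on all miRNAs of the library. rno-miR-192-5p, the guide strand of its hairpin, was among the most abundant miRNAs of the plasma: it ranked 5th by mean CPM at 52961 CPM and held 4.95% of all reads, from 1.12% to 10.8% of a library. rno-miR-122-3p followed at 324 CPM (rank 97) and rno-miR-194-5p at 135.7 CPM. In all libraries rno-miR-192-5p lay above both: its lowest value was 11192 CPM, and the highest were 1392 CPM for rno-miR-122-3p and 1086 CPM for rno-miR-194-5p, which overlap. The other arms, rno-miR-192-3p at 11.2 CPM (rank 261) and rno-miR-194-3p at 5.98 CPM (rank 303), had 0 reads in some libraries, with reads in 37 and 35 of the 40. CPM compares levels between miRNAs only roughly, since ligation and PCR favour some ends over others.

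miR-192 and miR-194 differed in how their reads divide between the arms. Of 2279928 reads on the arms of miR-192, 535 (0.0235%) were on the 3p arm, and of 5528 reads on those of miR-194, 226 (4.09%). The 5p arm of miR-194 has 2 genes and the named 3p arm 1, so the latter share is not that of a single hairpin, and it would be larger if each 5p read was counted at both genes. For miR-194 the 3p share per rat was 4.33 ± 4.06% in sham and 4.77 ± 3.70% in TBI rats on D2 (SD, n = 4 and 16), so the share differed by less than its spread between rats.

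For miR-122, whose 5p arm is the abundant one in liver, 14402 reads were on rno-miR-122-3p and 0 on rno-miR-122-5p. With a floor of 3 reads, the latter was below 1.17 to 7.42 CPM on D2 and 1.05 to 21.3 CPM on D9, depending on the library. In RefSeq, the mature rno-miR-122-5p overlaps rno-miR-3591, on the opposite strand, by 20 bases, and rno-miR-3591 has no entry in the count table. The same holds beyond this gene: of 685 miRNAs matched to RefSeq, 93 overlap another mature miRNA, and 85 of these (91.4%) had 0 reads, against 69 of the 592 others (11.7%). Of 279 hairpins with both arms in the table, 54 (19.4%) had 1 arm without reads, and in 10 the other arm had at least 1000 reads. In 8 of these 10, rno-miR-122 among them, the empty arm overlaps another mature miRNA. How the read counter treated overlapping features is not given in the sources used here, and its part in the 0 was not tested. The 0 of rno-miR-122-5p is not read here as its level in plasma, and rno-miR-122-3p stands for this hairpin.

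rno-miR-194-5p had an even number of reads in 34 of the 40 libraries, against 21 for rno-miR-192-5p and 22 for rno-miR-122-3p. Of 346 miRNAs with reads in at least 30 libraries, 8 (2.31%) had even counts in at least 80% of them. Whether a read that matches both copies of rno-miR-194-5p was counted at each is not given in the sources used here and was not tested. If each read was counted at both copies, all values of this miRNA would be scaled alike and its fold changes between groups left as they are. Its CPM would be too high and the ratios of other miRNAs to it too low by 2 times. All counts would then be even, while some libraries had odd counts. In those libraries at most a part of the reads can have been counted at both copies, and a part that differs between libraries would not scale them alike. In either case, counting intervals would be wider than those given, which take each read as counted once.

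Depth bears on all that follows. The sham libraries of D9 had between 140636 and 358202 reads, and the TBI libraries of that day between 332161 and 2864893, while on D2 all libraries had between 404542 and 2562083. The numbers in the library names were divided here into 3 runs, by the step between them, each with libraries of both days. A run is thus a stretch of numbers set for this report, not a batch named by the labels. The sham libraries of D2 are in run 1 and those of D9 in run 3, both times with those of TBI+ rats 1 to 4 and with no TBI− library of that day. The D2 and D9 libraries of 19 of the 20 rats are in different runs. What these numbers stand for is not given in the sources used here. For TBI− against sham rats within a day, and for D9 against D2 in sham rats, no run holds both sides, so that run and group or day cannot be told apart there except through the other rats.

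**Figure D1:**
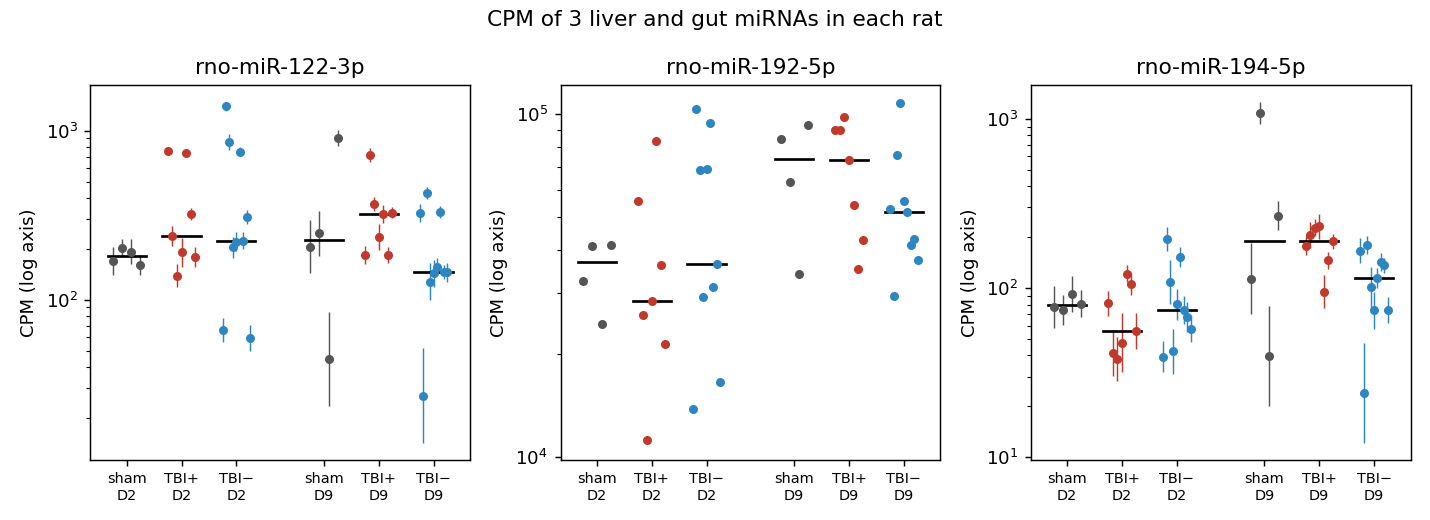
CPM (log axis) of rno-miR-122-3p, rno-miR-192-5p and rno-miR-194-5p in each rat, by group and day; points are rats, vertical lines are 95% Wilson intervals that cover counting error only, and black lines are group medians. The 4 sham rats lie close together on D2 for rno-miR-122-3p, between 161 and 202 CPM, while the TBI rats spread from 59.5 to 1392 CPM.

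On D2, none of the 5 members differed between TBI and sham rats by the test used throughout, the quasi-likelihood test of edgeR, with Benjamini-Hochberg adjustment over all miRNAs tested (adjusted p below 0.05). It called 0 of 5 members and 35 of 565 miRNAs (6.19%), and 18.2% of the 565, with 1 member among them, were below an unadjusted p of 0.05. DESeq2 also called 0 of the 5, with 45 of 565 in all. In TBI+ against sham rats 0 of 5 were called, with 18 of 565 (3.19%) in all, and in TBI− against sham 0 of 5, with 35 of 565 (6.19%) in all. Below an unadjusted p of 0.05 were 93 of 565 miRNAs in the former and 90 in the latter, with 0 and 1 members among them. DESeq2 called 0 members in both, with 34 and 37 of 565 miRNAs in all. With the run of library numbers as a term, edgeR called 0 of 5 in each of the 3 comparisons, with 15 of 565 in TBI, 13 of 565 (2.3%) in TBI+ and 2 of 565 in TBI− rats in all. By another measure, 12 of 565 miRNAs (2.12%) had CPM values that did not overlap between TBI and sham rats on D2, with 0 of the 5 members among them.

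rno-miR-122-3p, the passenger strand of the hepatocyte miRNA, was the member below 0.05. In the 4 sham rats it was at 170, 202, 192.1 and 161 CPM on D2, and in the 16 TBI rats between 59.5 and 1392 CPM, with a median of 231 CPM. Most TBI rats, 11 of 16, were above all sham rats, but 3 were below them and 2 between, so the groups overlap. The means were 415 ± 373 CPM in TBI and 181 ± 19.1 CPM in sham rats (SD), and the log2 fold change was 1.35 ± 0.61 (SE). This did not pass the test of edgeR (unadjusted p = 0.0354, Benjamini-Hochberg adjusted p = 0.230). What sets the TBI rats apart to the eye is their spread: SD was 89.8% of the mean in TBI and 10.5% in sham rats, a difference that was not tested.

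By outcome, rno-miR-122-3p lay between 138.5 and 756 CPM in the 7 TBI+ rats, with a median of 238 CPM, and between 59.5 and 1392 CPM in the 9 TBI− rats, with a median of 224 CPM. Both groups overlap the sham rats and each other. Against sham rats it gave 1.11 ± 0.63 in TBI+ and 1.52 ± 0.63 in TBI− rats (log2 fold change ± SE; edgeR, Benjamini-Hochberg adjusted p 0.423 and 0.206).

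Within the run that holds the sham libraries, rno-miR-122-3p passed the test, but through 1 rat. TBI+ rats 1 to 4 had 756, 238, 138.5 and 191 CPM, a mean of 331 ± 286 CPM (SD), against the same 4 sham rats. Of these 4, 2 were above all sham rats, 1 was below and 1 was between. The log2 fold change was 0.88 ± 0.27 (edgeR, Benjamini-Hochberg adjusted p = 0.0256, 24 of 524 miRNAs called, 4.58%). Without TBI+ rat 1, an alternative chosen after the data were seen, it was 0.18 ± 0.27 (adjusted p = 0.803, 25 of 510 called, 4.90%). Over the alternatives tried, the adjusted p of TBI+ against sham for this miRNA ran from 0.0256 to 0.803. With the run as a term over all libraries, also chosen after the data were seen, the log2 fold change of TBI against sham was 0.86 ± 0.65 (edgeR, Benjamini-Hochberg adjusted p = 0.644, range over the alternatives 0.000478 to 0.644). The lowest of that range came with the animal number as a block, a number that groups share without being the same animal.

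rno-miR-192-5p, a guide strand of liver and gut epithelium, was at 32677, 41193, 24406 and 41556 CPM in the sham rats on D2. In the TBI rats it lay between 11192 and 103411 CPM, with a median of 33743 CPM. The TBI rats fall on both sides: 6 above all sham rats, 4 below and 6 between. With means of 45343 ± 29743 and 34958 ± 8144 CPM (SD), the log2 fold change was 0.54 ± 0.46 (edgeR, Benjamini-Hochberg adjusted p = 0.545), smaller than the spread between rats. Its sign turned with the run as a term (−0.20).

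rno-miR-194-5p was at 77.4, 74.1, 92.3 and 81.1 CPM in the sham rats and between 38.1 and 196 CPM in the TBI rats, with a median of 70.9 CPM. Here 9 TBI rats were below all sham rats, 5 above and 2 between, and the means were nearly equal, 81.8 ± 45.1 and 81.2 ± 7.92 CPM (SD). The log2 fold change of 0.16 ± 0.37 (edgeR, Benjamini-Hochberg adjusted p = 0.857) turned to −0.61 with the run as a term, and in the run of the sham libraries 3 of 4 TBI+ rats were below all sham rats. The low-count arms gave 0.72 ± 0.71 for rno-miR-192-3p and 0.66 ± 0.86 for rno-miR-194-3p (edgeR, Benjamini-Hochberg adjusted p 0.621 and 0.716), and both turned sign with the run as a term (−0.02 and −0.07).

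On D9, 1 of the 5 members, rno-miR-194-5p, passed the test, and in TBI− rats alone, where 26 of 541 miRNAs (4.81%) were called. The study had also listed this miRNA as lower in TBI− than in sham rats on D9. Between all TBI and sham rats edgeR called 0 of 5 members, with 19 of 541 (3.51%) in all, and 86 of 541 miRNAs, with 1 member among them, were below an unadjusted p of 0.05. Between TBI+ and sham rats it called 0 of 5, with 10 of 541 (1.85%) in all, and 86 of 541, with 0 members among them, were below an unadjusted p of 0.05. DESeq2 called 0 members in both and 1 in TBI− rats, with 16, 11 and 22 of 541 miRNAs in all. Within the run of the sham libraries 0 of 5 were called by edgeR, with 10 of 488 (2.05%) in all, and with the run as a term 0 of 5 in each comparison, with 7 of 541 (1.29%) in TBI and in TBI+ rats and 3 of 541 in TBI− rats. Without sham rat 2, 0 of 541 were called in each of the 3. On D9, 3 of 541 miRNAs (0.555%) did not overlap between TBI and sham rats, with 0 members among them.

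The D9 call of rno-miR-194-5p depends on the sham rats. They had 114, 1086, 39.6 and 268 CPM, from 16, 176, 8 and 96 reads, and the 9 TBI− rats lay between 24.1 and 179.1 CPM, with a median of 115 CPM. Sham rats 2 (95% Wilson interval 937 to 1258 CPM, with each read taken as counted once) and 4 were above all TBI rats, and 15 of the 16 TBI rats lay within the range of the sham rats. In TBI− rats the log2 fold change was −1.61 ± 0.48 (edgeR, Benjamini-Hochberg adjusted p = 0.0454). Without sham rat 2 it was −0.31 and not called (edgeR, Benjamini-Hochberg adjusted p = 0.883). It also missed the threshold without sham rat 4 (log2 fold change −1.74, adjusted p = 0.05003), with the hemolysis index as a covariate (−1.58 and 0.0589) and with the run as a term (−1.22 and 0.9497), of a range over the alternatives from 0.00389 to 0.9497. The call was thus lost without either of the 2 highest sham rats, and the library of sham rat 2 had 162125 reads.

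Between all TBI and sham rats the log2 fold change of rno-miR-194-5p on D9 was −1.25 ± 0.46 (edgeR, unadjusted p = 0.0106, Benjamini-Hochberg adjusted p = 0.134). The 16 TBI rats lay between 24.1 and 231 CPM, with a median of 144.5 CPM and a mean of 143 ± 59.1 CPM against 377 ± 482 CPM (SD). Without sham rat 2 it was 0.04, so the sign turned, and without sham rat 3, the lowest, it was −1.64 and called (edgeR, Benjamini-Hochberg adjusted p = 0.0227). Scaling to miR-28-3p, the endogenous reference of the study, also gave a call (−1.81, adjusted p = 0.0420), of a range over the alternatives from 0.0227 to 0.990. In TBI+ rats it was −0.90 ± 0.51 against sham (adjusted p = 0.420) and 0.40 without sham rat 2.

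rno-miR-122-3p on D9 was at 206.2, 247, 44.5 and 907 CPM in the sham rats and between 27.1 and 721 CPM in the TBI rats, with a median of 210 CPM. The sham rats no longer lay close together, and 15 of 16 TBI rats lay within their range. Its log2 fold change was −0.34 ± 0.51 (edgeR, Benjamini-Hochberg adjusted p = 0.839), and without sham rat 4, the highest, it turned to 0.78.

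rno-miR-192-5p on D9 was at 84409, 63211, 34228 and 92892 CPM in the sham rats and between 29555 and 107453 CPM in the TBI rats, with a median of 53642 CPM. The groups overlap, with 13 of 16 TBI rats within the range of the sham rats and the others outside it. Its log2 fold change was −0.07 ± 0.31 (edgeR, Benjamini-Hochberg adjusted p = 0.904), and it was 0.00 ± 0.60 for rno-miR-192-3p and −0.46 ± 0.67 for rno-miR-194-3p (adjusted p 0.995 and 0.833). The 4 TBI+ rats in the run of the sham libraries had 73148 to 97988 CPM of rno-miR-192-5p and the 3 TBI+ rats of another run 35405 to 54323 CPM. These do not overlap, in a split found by looking at the values, but the 5 TBI− rats of that other run, at 29555 to 107453 CPM, overlap both.

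Between TBI+ and TBI− rats no member was called on either day. edgeR called 0 of 565 miRNAs (0.0%) on D2 and 0 of 541 (0.0%) on D9, with 38 and 22 miRNAs, and 0 of the 5 members on both days, below an unadjusted p of 0.05. DESeq2 called 0 on both days. On D2 the fitted log2 differences, TBI+ minus TBI−, were −0.41 ± 0.49 for rno-miR-122-3p, −0.54 ± 0.38 for rno-miR-192-5p and −0.43 ± 0.32 for rno-miR-194-5p. On D9 they were 0.74 ± 0.44, 0.34 ± 0.28 and 0.71 ± 0.41 (SE), so the fitted values changed sides between the days, with SE of similar size. The difference of rno-miR-192-5p on D9 turned to −0.40 with the run as a term. That of rno-miR-194-5p on D2 ran from −0.48 to −0.02 over the alternatives, so it was near 0 in at least 1 of them.

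**Figure D2:**
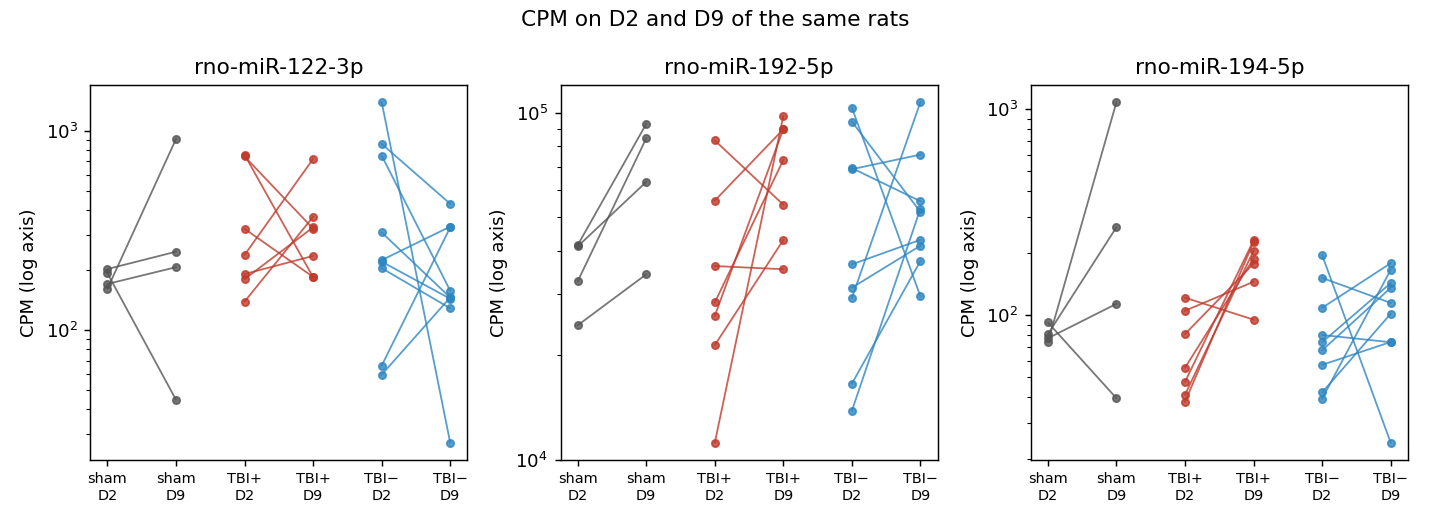
CPM (log axis) of rno-miR-122-3p, rno-miR-192-5p and rno-miR-194-5p on D2 and D9, with a line for each rat, by group. rno-miR-194-5p was higher on D9 in 12 of 16 TBI rats, and rno-miR-192-5p in 11 of 16 TBI and 4 of 4 sham rats.

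From D2 to D9, rno-miR-194-5p rose in TBI rats. This was 1 of 5 members called, in a comparison where edgeR called 186 of 581 miRNAs (32.0%). Its median went from 70.9 to 144.5 CPM, 12 of the 16 rats were higher on D9, and the log2 fold change was 0.81 ± 0.28 (edgeR, Benjamini-Hochberg adjusted p = 0.0211). In TBI+ rats 6 of 7 were higher on D9 (medians 55.7 and 189 CPM), and in TBI− rats 6 of 9 (74.1 and 115 CPM). It was still called with the run as a term (0.95 ± 0.29, adjusted p = 0.0106) but not with the hemolysis index as a covariate (1.27 ± 0.44, adjusted p = 0.0631), of a range over the alternatives from 0.000235 to 0.148.

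The rat as a block pairs D2 and D9 libraries by the group and number in their titles. The check of this pairing, given below, did not bear it out. With this block, 3 of 5 members rose in TBI rats, where 162 of 581 miRNAs (27.9%) were called. The log2 fold change was 0.91 ± 0.22 for rno-miR-194-5p, 0.66 ± 0.17 for rno-miR-192-5p and 1.00 ± 0.32 for rno-miR-192-3p (edgeR, Benjamini-Hochberg adjusted p 0.000235, 0.00056 and 0.0077). For rno-miR-192-5p, 11 of 16 rats were higher on D9, with medians of 33743 and 53642 CPM, and without the block the log2 fold change was 0.42 ± 0.26 (edgeR, Benjamini-Hochberg adjusted p = 0.216, range over the alternatives 0.00056 to 0.304). For rno-miR-192-3p, 11 of 16 were higher, and without the block it was 0.67 ± 0.36 (adjusted p = 0.153, range 0.0077 to 0.755). With the rat as a block together with the hemolysis index, chosen after the data were seen, 0 of 5 were called by edgeR, with 19 of 581 miRNAs in all. The log2 fold changes were then 1.61 ± 0.57, 1.36 ± 0.44 and 1.23 ± 0.84 (adjusted p 0.148, 0.0939 and 0.755).

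rno-miR-122-3p was not called. It was higher on D9 in 7 of 16 TBI rats and lower in 9, with medians of 231 and 210 CPM. Its log2 fold change was −0.69 ± 0.36 (edgeR, Benjamini-Hochberg adjusted p = 0.138) and −0.29 ± 0.22 with the rat as a block (adjusted p = 0.399, range over the alternatives 0.0907 to 0.962). With the hemolysis index as a covariate its sign turned, to 0.14, and to 0.85 with the rat as a block as well. rno-miR-194-3p, with few reads, was at 0.33 ± 0.44 and higher on D9 in 10 of 16 rats (edgeR, Benjamini-Hochberg adjusted p = 0.588).

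The hemolysis index and its parts moved with the day as well. This index, the log2 ratio of miR-451-5p to miR-23a-3p, was higher on D9 in 16 of 16 TBI rats (mean −0.28 on D2, 1.27 on D9) and in 4 of 4 sham rats (−0.52 and 1.13). In sham rats miR-451-5p went from a mean of 2783 to 3133 CPM and miR-23a-3p, the denominator, from 3860 to 1515 CPM, so the index moved there mostly through miR-23a-3p. In TBI rats both parts moved, miR-451-5p from 3343 to 5874 CPM and miR-23a-3p from 3734 to 2204 CPM. The index is thus no measure of red cell RNA alone. Per the study's methods, plasma for sequencing was checked for hemolysis by eye and by absorbance before RNA extraction. Of 8 red blood cell miRNAs, 7 rose in TBI rats from D2 to D9, where 32.0% of all miRNAs were called, with a median log2 fold change of 0.85 against 0.06 over all 581. In sham rats edgeR called 0 of these 8, with 6.71% of all called, and the median was 0.11 against 0.00. Their summed CPM in TBI rats was 27982 ± 9603 on D2 and 42211 ± 15631 on D9 (SD, n = 16), most of it from miR-16-5p. CPM are shares of a library, so a rise of abundant miRNAs lowers the CPM of the others. With RLE size factors, library totals or miR-28-3p in place of TMM, edgeR called 1 of 5 members between the days in TBI rats with each, and nearly as many miRNAs as with TMM. Such size factors rescale a library as a whole, and the part of red cell RNA in the day differences was not tested by them.

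In sham rats, rno-miR-194-5p also passed the test from D2 to D9, as 1 of 5 members in a comparison with 39 of 581 miRNAs called (6.71%). The log2 fold change was 2.15 ± 0.59, and 3 of 4 rats were higher on D9 (edgeR, Benjamini-Hochberg adjusted p = 0.0180). It was 0.80 without sham rat 2, with 2 of 580 miRNAs called in all (adjusted p = 0.624), and 1.37 ± 0.47 with the rat as a block (adjusted p = 0.0636, 28 of 581 called, 4.82%), of a range over the alternatives from 0.00266 to 0.624. With the run as a term it was 1.44 (adjusted p = 0.255). rno-miR-192-5p was higher on D9 in 4 of 4 sham rats, at 0.98 ± 0.52 (edgeR, Benjamini-Hochberg adjusted p = 0.314) and 0.93 ± 0.31 with the rat as a block (adjusted p = 0.0543, range over the alternatives 0.0543 to 0.907).

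The change from D2 to D9 was not shown to differ between TBI and sham rats for any member. edgeR called 0 of 5, with 22 of 581 miRNAs (3.79%) in all, and 0 of 5 with the rat as a block, with 17 of 581 (2.93%). DESeq2 called 0 of 5, with 29 of 581 in all. Below an unadjusted p of 0.05 (edgeR) were 92 of 581 miRNAs, with 2 members among them, rno-miR-122-3p at −1.64 ± 0.81 and rno-miR-194-5p at −1.34 ± 0.64 (SE; edgeR, Benjamini-Hochberg adjusted p 0.311 and 0.291), and without sham rat 2 the latter was 0.03. That of rno-miR-122-3p ran from −2.03 to −0.53 over the alternatives, so its size depends on the choice made.

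One injured rat stood apart on both days. TBI− rat 2 had the highest value of the 16 TBI rats on D2 for 5 of 5 members, with 1392 CPM of rno-miR-122-3p, 103411 CPM of rno-miR-192-5p and 196 CPM of rno-miR-194-5p. On D9 it had the lowest value for 4 of 5, with 27.1, 29555 and 24.1 CPM of the same miRNAs. Its libraries had 744853 and 332161 reads, the latter the smallest of the TBI libraries of D9, and this rat was singled out after its values were seen.

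For the 3 more abundant members, rats with more of one had more of the others on D2. Across the 16 TBI rats, Pearson's r of log2 CPM was 0.88 for rno-miR-192-5p and rno-miR-194-5p, 0.89 for rno-miR-122-3p and rno-miR-192-5p and 0.82 for rno-miR-122-3p and rno-miR-194-5p. Spearman's rho was 0.92, 0.86 and 0.82 (permutation tests with 100000 resamples, two-sided, p for r 3e-05, 3e-05 and 0.00019, for rho 2e-05, 2e-05 and 0.00019). Adjusted over the 6 relations computed, p for r was 9e-05, 9e-05 and 0.00038, and for rho 6e-05, 6e-05 and 0.00038. Without the 2 rats farthest from the median on the x axis, r was 0.84, 0.86 and 0.83, and within the run with most TBI libraries (n = 8) it was 0.88, 0.89 and 0.92 (exact permutation tests, two-sided, p 0.00565, 0.00327 and 0.00283). So r was of similar size for miR-122, which has a gene of its own, with either of the others and for miR-192 with miR-194; the difference between these r was not tested.

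On D9 the relations were uneven. r was 0.84 for rno-miR-122-3p and rno-miR-194-5p, 0.56 for rno-miR-192-5p and rno-miR-194-5p and 0.48 for rno-miR-122-3p and rno-miR-192-5p, with rho of 0.76, 0.45 and 0.29 (permutation tests, two-sided, p for r 0.00034, 0.0193 and 0.0541, for rho 0.00104, 0.0832 and 0.278). Adjusted over the 6 relations, p for r was 0.00051, 0.0232 and 0.0541, and for rho 0.00156, 0.0998 and 0.278. Without the 2 farthest rats r was 0.60, 0.64 and 0.10, so the last relation rests on those rats. Within the run with most TBI libraries (n = 8) r was 0.92, 0.44 and 0.43 (exact permutation tests, two-sided, p 0.00543, 0.284 and 0.294). For rno-miR-192-5p and rno-miR-194-5p r was thus smaller there than the 0.56 over all 16 rats and did not pass the test with 8 rats, which does not show that the relation is absent. Whether r differs between the days was not tested, and all rats of a day share the normalization to their library total.

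**Figure D3:**
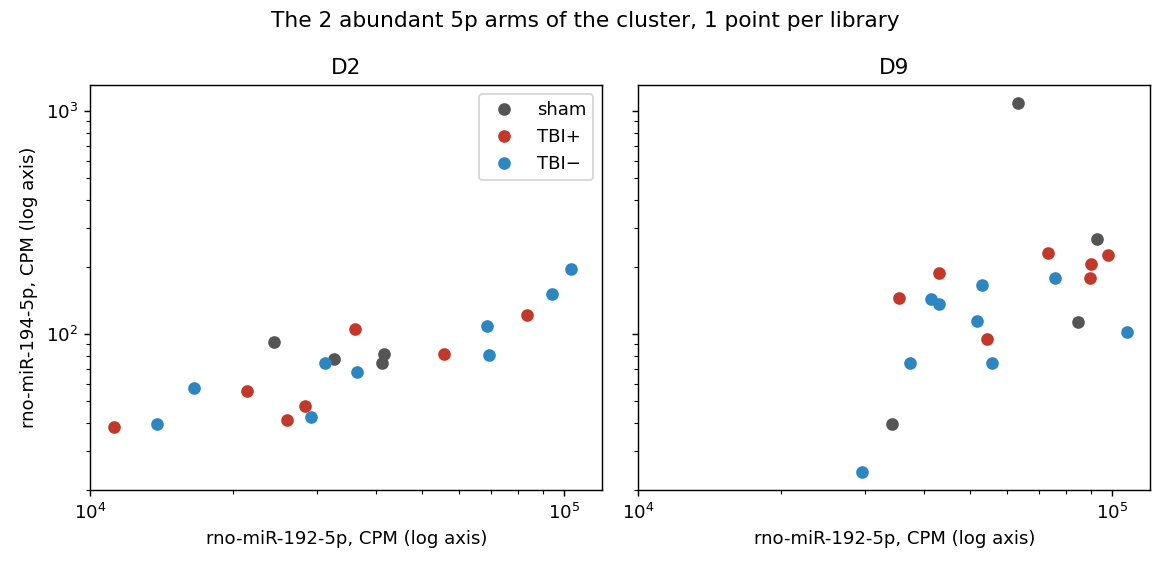
CPM of rno-miR-194-5p against CPM of rno-miR-192-5p (both log axes), 1 point per library, D2 left and D9 right, colored by group. On D2 the points follow a line (r = 0.88 in the 16 TBI rats), and on D9 sham rat 2 lies far above the others, at 1086 CPM of rno-miR-194-5p.

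The ratio of rno-miR-192-5p to rno-miR-194-5p does not depend on the scaling of a library. Its geometric mean on D2 was 504 in TBI and 419 in sham rats, log2 8.98 ± 0.49 and 8.71 ± 0.48 (SD; exact permutation test, two-sided, p = 0.340, adjusted over 6 tests 0.614). On D9 it was 444 and 329, log2 8.80 ± 0.68 and 8.36 ± 1.76 (exact permutation test, two-sided, p = 0.409, adjusted 0.614). The differences were smaller than the spread between rats on both days. The ratios themselves would be 2 times as large if each read of rno-miR-194-5p was counted at both of its genes, and their differences between groups the same. Odd counts in some libraries show that this was not so for each read there.

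The ratio of the 4 sham rats on D9 was 742, 58.2, 864 and 347. Sham rat 2 is low because its rno-miR-194-5p is high while its rno-miR-192-5p, at 63211 CPM, is within the range of the other sham rats. Without it the log2 difference between TBI and sham rats on D9 turned from 0.43 to −0.40. Between TBI+ and TBI− rats the ratio differed by a log2 of −0.09 on D2 and −0.48 on D9, TBI+ minus TBI− (two-sided exact permutation tests, p 0.721 and 0.174, adjusted 0.865 and 0.614). From D2 to D9 it was −0.18 in TBI rats (exact sign-flip permutation test, two-sided, p = 0.249, adjusted 0.614) and −0.35 in sham rats (p = 0.875, adjusted 0.875), where 4 rats cannot give a p below 0.125. Without sham rat 2 the latter was 0.62.

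Outside the members, miR-802 was most like them over the 40 libraries, given as a description with all libraries pooled. Among 274 miRNAs that averaged 10 reads or more, miR-802-5p had the highest Spearman's rho with rno-miR-122-3p (0.83) and with rno-miR-194-5p (0.83), and miR-802-3p with rno-miR-192-5p (0.83). Next came rno-miR-194-5p (0.63) and miR-148a-3p (0.60) for rno-miR-122-3p, rno-miR-194-5p (0.77) and miR-802-5p (0.75) for rno-miR-192-5p, and rno-miR-192-5p (0.77) and rno-miR-192-3p (0.75) for rno-miR-194-5p. miR-802 and miR-148a are also abundant in liver and are on the list of other liver miRNAs. All these libraries share a tissue and a scaling to their total.

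Other miRNAs abundant in liver, led by miR-148a-3p (9435 CPM) and miR-101a-3p (2906 CPM), were measured for 15 entries. On both days 0 of 15 were called between TBI and sham rats by edgeR, with median log2 fold changes of 0.15 and 0.10 against 0.09 and 0.30 over all miRNAs. Of all miRNAs 6.19% were called on D2 and 3.51% on D9, so 0 of 15 is near these shares and is not read as a result about the list. From D2 to D9 in TBI rats 2 of 15 rose (miR-101a-3p at 0.62 ± 0.21 and miR-148a-5p at 0.46 ± 0.16) and 4 fell (miR-193b-5p, miR-365-3p, miR-365-5p and miR-483-5p), with a median of 0.26 against 0.06. With 186 of 581 miRNAs (32.0%) called in that comparison, 81 up and 105 down, 6 of 15 is near the share over all miRNAs and is not read as a result about the list. Not all called miRNAs of this and the next lists are named. Those named that are not the most abundant of their list were chosen after their values were seen.

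Epithelial miRNAs, led by miR-375-3p (4410 CPM) and miR-200a-3p (654 CPM), had 0 of 11 called on D2 and 1 of 10 on D9 between TBI and sham rats. On D2 the share called over all miRNAs was 6.19%, so 0 of 11 is not read as a result about the list. The median log2 fold changes were −0.11 and −0.46, against 0.09 and 0.30 over all miRNAs. The one called, in a comparison with 3.51% of all miRNAs called, was miR-200c-3p, at −2.49 ± 0.43 (edgeR, Benjamini-Hochberg adjusted p = 0.000144), and without sham rat 2 none of 541 miRNAs were called. In TBI rats it rose from D2 to D9 (0.72 ± 0.27), the 1 of 11 called, with a list median of 0.45 against 0.06. In that comparison 186 of 581 miRNAs (32.0%) were called, so 1 of 11 is not read as a result about the list. In sham rats 1 of 11 also rose between the days, where 6.71% of all miRNAs were called, with a list median of 0.77 against 0.00.

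For the lists of other sources, the share called over all miRNAs was 6.19% on D2 (35 of 565) and 3.51% on D9 (19 of 541) between TBI and sham rats, and 32.0% (186 of 581) between the days in TBI rats. Of 13 neuronal miRNAs, led by miR-128-3p (6247 CPM) and miR-132-3p (52.0 CPM), 7 rose on D2 in TBI against sham rats. The list median log2 fold change was 1.30 against 0.09 over all. On D9, 0 of 11 were called by edgeR (0.28 against 0.30), and 8 fell from D2 to D9 in TBI rats (−1.13 against 0.06). The study had already listed neuronal miRNAs as raised in these same libraries. The neuronal list was chosen with earlier results of these data known. Its counts on D2 and from D2 to D9 are thus not independent of that choice and are not read as results about the list. Of 9 muscle miRNAs, led by miR-133b-3p (205 CPM) and miR-133a-5p (147.6 CPM), 0 were called on D2 (0.78) and 0 of 7 on D9 (−0.60), and 5 fell from D2 to D9 in TBI rats (−1.75). In sham rats 0 of these 9 were called between the days by edgeR, with a median of −1.24. Of 9 white blood cell and platelet miRNAs, led by miR-150-5p (20880 CPM) and miR-142-5p (17554 CPM), miR-150-5p fell on D2 (−0.85 ± 0.26; list median −0.26). On D9 miR-146a-5p fell (−2.13 ± 0.44; list median 0.12), again a call that needs sham rat 2, and 4 rose from D2 to D9 in TBI rats (0.45). Of 8 red blood cell miRNAs, led by miR-16-5p (28319 CPM) and miR-451-5p (4279 CPM), 0 were called by edgeR on D2 (0.01) and on D9 (0.61). On D2, none of the 5 members and none of the other liver or epithelial miRNAs passed the test between TBI and sham rats in the same libraries. With 6.19% of all miRNAs called, this is near the share over all and is not read as a result about them. Whether these lists differ from the neuronal one was not tested.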

How the data were processed

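The authors deposited 1 count per miRNA and library, a raw read count without normalization, and these counts were used as they are. Per the study's methods and the submitters' processing notes, reads were checked with FastQC 11.8, trimmed with Trimmomatic 0.36, aligned with Bowtie2 to Rno6 and counted on miRBase miRNAs with featureCounts of Subread. All 40 columns were matched to samples by the label in the sample title, with 0 left over, and the titles gave group, animal number and day.

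CPM was the count over the library total, times 1000000. Comparisons within a day used edgeR's quasi-likelihood test (TMM, all 20 libraries of the day, miRNAs with any read); comparisons between days used all 40 libraries. Adjustment was by Benjamini-Hochberg over all miRNAs tested, with a threshold of 0.05. The ratio used counts plus 0.5, correlations log2 of CPM plus 1, and random resampling seed 1. Tools were DESeq2 1.42.0 and edgeR 4.0.16 under R 4.3.3, and scipy 1.17.1, numpy 2.4.6, pandas 2.3.3 and matplotlib 3.10.9 under Python 3.11.15. The edgeR fits were tested on simulated data, and identical libraries were looked for, with 0 pairs found.

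Named miRNAs are all entries with the stems rno-miR-122, rno-miR-192, rno-miR-194 and rno-miR-215, the 3 most like each of rno-miR-122-3p, rno-miR-192-5p and rno-miR-194-5p, the 2 most abundant of each tissue list (other liver, epithelium, red blood cells, white blood cells and platelets, muscle, neurons), miR-28-3p, and miR-23a-3p and miR-451-5p as the parts of the hemolysis index. Some other miRNAs that were called in a tissue list are named beside its count and were chosen after their values were seen, while the rest are given as counts only. miR-28-3p was at 1104 ± 16.0 CPM in sham and 963 ± 96.7 CPM in TBI rats on D2, and at 882 ± 221 and 928 ± 155 CPM on D9 (SD, n = 4 and 16). The members and lists were chosen with earlier results of these data known.

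D2 and D9 libraries were paired by the group and number in the titles. In the pairing check, the correlation of deviations from the group mean between both libraries of a rat had a median of −0.06 over 20 rats (−0.32 to 0.39), with 4 above 0.1. Sequences and gene neighbours come from RefSeq, build GRCr8, which matched 685 of the 752 miRNAs by name, while the counts were made on Rno6, so no positions are given.

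Alternatives were DESeq2, RLE and total scaling, miR-28-3p as size factor, filterByExpr, the hemolysis index as covariate, the rat or the animal number as a block, the run of library numbers, another pseudocount or scaling for ratios and correlations, the count of rno-miR-194-5p over its 2 gene copies, and fits that leave out 1 sham rat each. The run as a term, the rat block with the hemolysis index, and the run of the sham libraries without TBI+ rat 1 were chosen after the data were seen.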

Additional observations from a re-analysis of the deposited data

Results flagged for a closer look

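In 36 groups of 4 to 9 rats (CPM of each of the 5 members with reads, and the log2 ratio of rno-miR-192-5p to rno-miR-194-5p, by group and day), 2 values lay far from the others of their group by Dixon's test at 95%, where chance gives about 1 in 20, or 1.8. One is rno-miR-194-3p in TBI− rat 2 on D2, at 28.2 CPM (21 reads), with the other 8 TBI− rats between 0 and 9.89 CPM. The other is rno-miR-122-3p in TBI+ rat 2 on D9, at 721 CPM (441 reads), with the other 6 TBI+ rats between 184 and 369 CPM. The cause was not tested for either.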

How the results depend on the processing

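Among the log2 fold changes of members under the alternatives, 540 kept their sign and their side of the threshold, 83 turned sign, 10 were no longer called and 9 were newly called. The cause was not tested for any of these. The values are log2 fold changes (sham is the reference unless another is named), and counts are miRNAs called over all miRNAs tested. With DESeq2, values turned on D9 for TBI against sham (miR-192-3p −0.15) and TBI+ against sham (miR-192-5p −0.018, miR-192-3p −0.033, miR-122-3p −0.042), and 34 rather than 18 were called on D2 in TBI+. With RLE size factors they turned on D9 for TBI (miR-192-3p −0.15) and TBI+ (miR-192-5p −0.018, miR-192-3p −0.029, miR-122-3p −0.056), with 16 rather than 10 called on D9 in TBI+. With library totals they turned on D2 for TBI+ (miR-194-3p −0.0081) and on D9 for TBI (miR-192-3p −0.12) and TBI+ (miR-192-3p −0.019, miR-122-3p −0.095). With miR-28-3p as size factor they turned on D2 for TBI+ (miR-194-5p 0.015) and on D9 for TBI (miR-192-3p −0.29) and TBI+ (miR-192-5p −0.11, miR-192-3p −0.13, miR-122-3p −0.24). It called 23 rather than 35 on D2 and 29 rather than 19 on D9 in TBI. With filterByExpr, which tests fewer miRNAs and left out miR-194-3p within a day, they turned on D9 for TBI (miR-192-3p −0.14) and TBI+ (miR-192-3p −0.041, miR-122-3p −0.070), with 3 rather than 10 called in TBI+.

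Other scaling moved the median log2 fold change of all miRNAs on D9 in TBI, 0.30 as reported, to 0.12 with RLE, 0.18 with library totals and 0.09 with miR-28-3p. In TBI− it went from 0.21 to 0.064 with RLE, 0.11 with totals and 0.00 with miR-28-3p. On D2 in TBI it was 0.09, and −0.025 with totals, in TBI+ 0.03, and 0.17 with miR-28-3p, and in TBI− 0.06, and −0.049 with totals. For the D9 minus D2 change it was 0.09, and −0.16 with RLE and −0.19 with miR-28-3p. DESeq2, which differs in model as well as scaling, gave medians of −0.38 on D9 in TBI, −0.28 in TBI+ and −0.27 in TBI−, 0.65 for D9 against D2 in sham (0.00 as reported and with RLE) and −0.46 for the change. The calls up and down were 18 and 17 on D2 (17 and 6 with miR-28-3p, 28 and 17 with DESeq2), and 6 and 13 on D9 (4 and 21 with RLE, 4 and 19 with totals, 2 and 27 with miR-28-3p). In TBI+ on D2 they were 13 and 5 (12 and 8 with totals), and in TBI− on D9 7 and 19 (3 and 21 with RLE, 1 and 20 with miR-28-3p). For D9 against D2 in sham they were 17 and 22 (23 and 13 with RLE, 31 and 0 with miR-28-3p, 31 and 16 with DESeq2), and for the D9 minus D2 change 11 and 11 (4 and 15 with RLE, 8 and 12 with totals, 4 and 18 with miR-28-3p, 7 and 22 with DESeq2).

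With the hemolysis index as a covariate, miR-192-3p on D9 in TBI was −0.0042 and miR-122-3p for D9 against D2 in TBI 0.14, where 46 rather than 186 were called. With the rat as a block as well, the latter was 0.85 and 19 were called. The rat as a block alone turned no sign in a member. With the animal number as a replicate block, a number that groups share without being the same animal, miR-122-3p was called on D2 in TBI (1.29 ± 0.29), TBI+ (1.06 ± 0.31) and TBI− (1.48) against sham (edgeR, Benjamini-Hochberg adjusted p 0.000478, 0.0275 and 0.000302, of ranges over the alternatives from 0.000478 to 0.644, 0.0256 to 0.803 and 0.000302 to 0.830). miR-194-5p on D9 in TBI− was −0.96 with this block and not called (adjusted p = 0.913, range 0.00389 to 0.9497). Under this block values turned on D2 for TBI (miR-194-5p −0.15) and TBI+ (miR-194-3p −0.16, miR-192-5p −0.093). On D9 they turned for TBI (miR-194-3p 0.060, miR-192-5p 0.28, miR-122-3p 0.11), TBI+ (miR-194-3p 0.0040), TBI− (miR-194-3p 0.12, miR-192-5p 0.13) and TBI+ against TBI− (miR-194-3p −0.11). It called 3 rather than 0 on D2 between TBI+ and TBI−, and on D9 7 rather than 19 in TBI, 4 rather than 10 in TBI+ and 6 rather than 26 in TBI−.

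In the run of the sham libraries, which leaves 4 TBI+ and 4 sham rats, values turned on D2 for miR-194-5p (−0.61, against that of TBI only), miR-194-3p (−0.11), miR-192-5p (−0.21) and miR-192-3p (−0.055), and on D9 for miR-192-5p (0.38) and miR-122-3p (0.15), both against that of TBI only. It called 10 on D9, as many as TBI+ against sham over all runs. Without TBI+ rat 1 those of D2 were −1.34 for miR-194-3p, −0.55 for miR-192-5p and −0.29 for miR-192-3p. With the run as a term, chosen after the data were seen, they turned on D2 for TBI (miR-194-5p −0.61, miR-194-3p −0.067, miR-192-5p −0.20, miR-192-3p −0.016), TBI+ (miR-194-3p −0.066, miR-192-5p −0.20, miR-192-3p −0.016), TBI− (miR-194-5p −0.59, miR-192-3p −0.029) and TBI+ against TBI− (miR-192-3p 0.013). On D9 they turned for TBI (miR-192-5p 0.43, miR-122-3p 0.17), TBI− (miR-194-3p 0.70, miR-192-5p 0.83, miR-192-3p 0.12) and TBI+ against TBI− (miR-194-3p −0.71, miR-192-5p −0.40), and for the D9 minus D2 change (miR-192-5p 0.17). It called 15 rather than 35 on D2 in TBI, 2 rather than 35 on D2 in TBI−, 7 rather than 19 on D9 in TBI, 3 rather than 26 on D9 in TBI−, 19 rather than 39 between the days in sham and 2 rather than 22 for the change.

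With the count of miR-194-5p divided by its 2 gene copies, its mean would be 40.6 CPM in sham rats on D2 and 71.4 CPM in TBI rats on D9.

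Leaving out 1 sham rat at a time moved the D2 counts to between 21 and 31 in TBI, 11 and 18 in TBI+ and 23 and 29 in TBI−, lowest without sham rat 1 in each. On D9 they ran from 0 to 23 in TBI, 0 to 15 in TBI+ and 0 to 21 in TBI− (17 without sham rat 1), each 0 without sham rat 2 (edgeR; 70, 75 and 63 at an unadjusted p below 0.05; DESeq2 was not run without it). Between the days in sham they ran from 2 (without sham rat 2) to 46, with 14 without sham rat 3, and for the change from 8 to 12. The log2 fold changes of members that turned ran on D2 for miR-194-3p in TBI+ from −0.26 (without sham rat 3) to 0.58. On D9 in TBI they ran for miR-194-5p from −1.64 to 0.040 (without sham rat 2), miR-192-5p from −0.31 to 0.11 (above 0 without sham rats 1 or 4), miR-192-3p from −0.31 to 0.33 (below 0 without 1 or 3) and miR-122-3p from −0.71 to 0.78 (without sham rat 4). On D9 in TBI+ they ran for miR-194-5p from −1.28 to 0.40 (without sham rat 2), miR-192-5p from −0.13 to 0.29 (below 0 without 2 or 3), miR-192-3p from −0.18 to 0.46 (below 0 without 1 or 3) and miR-122-3p from −0.34 to 1.15 (below 0 without 1, 2 or 3). In TBI− they ran for miR-192-3p from −0.41 to 0.22 (above 0 without 2 or 4) and miR-122-3p from −1.08 to 0.41 (without sham rat 4). Between the days in sham miR-122-3p ran from −0.16 (without sham rat 4) to 1.34, and for the change miR-194-5p from −1.77 to 0.027 (without sham rat 2). The log2 ratio of miR-192-5p to miR-194-5p ran on D9 in TBI from −0.40 (without sham rat 2) to 0.87 and between the days in sham from −1.01 to 0.62 (without sham rat 2). Of the correlations, miR-192-5p with miR-194-5p on D9 was no longer below 0.05 within the largest run (r = 0.437, exact permutation test, two-sided, adjusted p = 0.294), and miR-122-3p with miR-192-5p on D9 was with TMM-scaled CPM (r = 0.505, permutation test, two-sided, adjusted p = 0.0423).

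There were 4 sham rats, of low depth on D9, and runs that follow the groups. Differences between TBI and sham rats as large as 1.35 ± 0.61 (miR-122-3p on D2) and −1.25 ± 0.46 (miR-194-5p on D9; log2, SE) did not pass the test of edgeR, and the reason was not tested. Counting intervals and floors leave out the variation of blood drawing, extraction and PCR. Plasma CPM are shares, so absolute amounts, and the organs that released the RNA, were not measured, and rno-miR-122-5p and rno-miR-215 have no usable counts.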
